A study of Thermomyces lanuginosus with 4 samples.

Results

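The genes described here were those whose transcripts were far less abundant on Avicel, a microcrystalline cellulose, than on glucose in the thermophilic mould Thermomyces lanuginosus. They were chosen by their measured values. For every gene ID, R was computed as the mean abundance on Avicel plus 1 divided by the mean abundance on glucose plus 1. A gene was kept when R was at most 0.25, when both glucose libraries held at least 20 FPKM (fragments per kilobase of transcript, relative to the mapped fragments of the library) and when the higher Avicel value lay below the lower glucose value. The rule kept 98 of 9704 gene IDs, and 98 of the 4518 IDs that had at least 20 FPKM in both glucose libraries (2.17%). Since the values themselves chose the genes, the contrast between the carbon sources is given as a description and supports nothing by itself.

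The tested mycelium, of strain P134, had grown on Avicel and was 2 days old (2 libraries). The mycelium it was set against was of the same strain and age and had grown on glucose (2 libraries). All 4 libraries were made from total RNA, and the labels name no genetic change and no further agent in either group. Whether both libraries of a carbon source stem from separate cultures is not stated in the sources used here, so the spread between them may be technical, and with it every limma p-value. No other carbon source was included. A gene lowered on Avicel and a gene raised on glucose therefore cannot be told apart in these data. In bulk mycelium, fewer expressing cells and less RNA per cell cannot be told apart either.

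Cellulose reaches a fungal cell only after secreted enzymes have cut it into soluble sugars, whereas glucose is taken up directly and enters glycolysis. In filamentous fungi, glucose also represses many genes for the use of other carbon sources, a control known as carbon catabolite repression, in which the repressor CreA of Aspergillus and its relatives takes part. Genes that are higher on glucose than on cellulose form the other side of such a comparison. In fungi at large they can include sugar transporters, enzymes of central metabolism and genes linked to growth rate. That is background only. The deposited tables hold no gene names, none of the 9704 IDs occurred in a RefSeq gene table of another strain with 8214 genes, and no function, position or sequence is attached to any gene below. The 2 genes with the lowest R are named by their IDs, and the others by their place in the order of abundance.

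Each library listed the same IDs, with FPKM totals of 551462 and 553234 on Avicel and of 541446 and 556312 on glucose. The number of reads behind a value is unknown. Relative to the first Avicel library, a depth of 93.3% was estimated for the second Avicel library, 80.7% for the first of the glucose libraries and 99.3% for the other. FPKM is a share of each library, so a value also falls when other transcripts take more of the total. Over the 8261 tested genes the median change on Avicel was -0.16 on the log2(FPKM + 1) scale. Over the 98 lowered genes it was -2.73, a difference of -2.57 from the median of all tested genes.

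**Figure D1:**
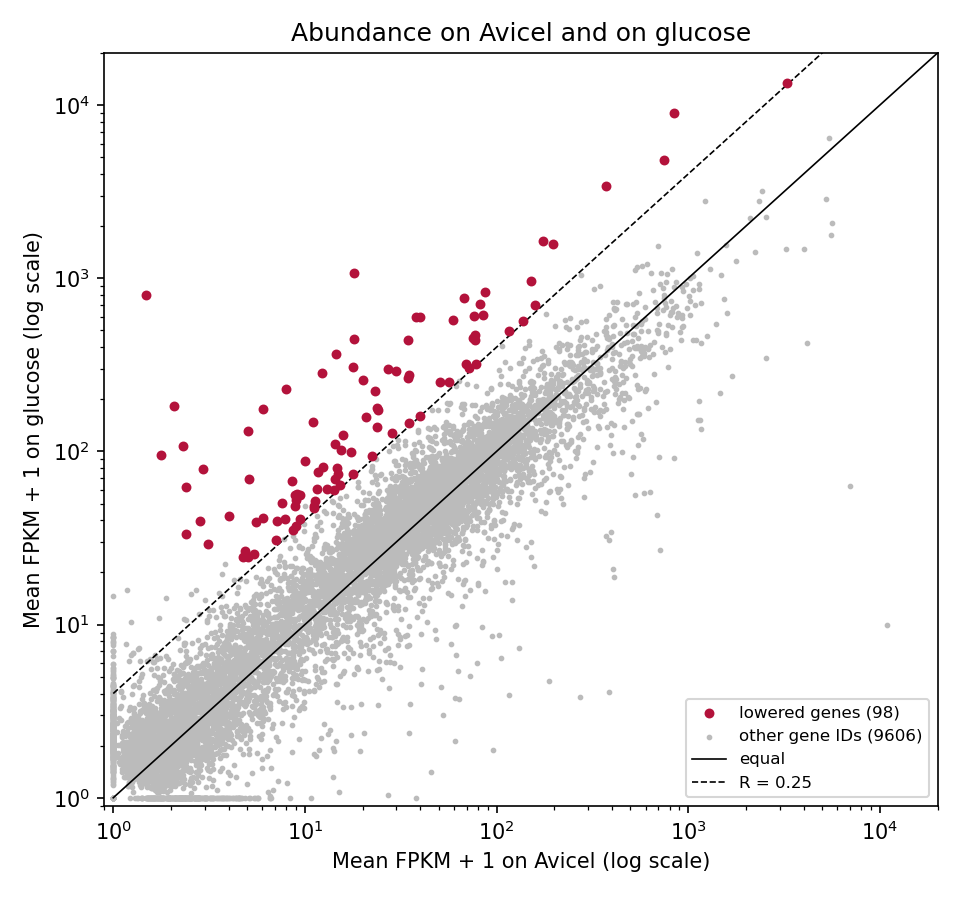
Mean FPKM + 1 on Avicel (horizontal) and on glucose (vertical), both on log scales, for all 9704 gene IDs; red points are the 98 lowered genes, the solid line marks equal values and the dashed line R = 0.25. The red points lie above the dashed line by construction and span more than 2 orders of magnitude on each axis; 1 point, c4128_g1, stands alone at the upper left.

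The lowered genes differed widely in abundance among themselves, on glucose within the floor that the rule set there. Their mean level on Avicel lay between 0.485 and 3263 FPKM, with a median of 14.1 FPKM and the middle 50% of the genes between 7.56 and 39.0 FPKM. On glucose it lay between 23.5 and 13417 FPKM, with a median of 134 FPKM and the middle 50% between 56.4 and 420 FPKM. On glucose all of them stood at position 4335 or above in the order of all 9704 IDs, which follows from that floor. The median position in that order, counted from the most abundant, was 4891 on Avicel and 833 on glucose. A gene that was high among the 98 on one carbon source was mostly high among them on the other as well. The Spearman correlation between both mean levels was 0.80 across the 98 genes. It is a description, since the genes share 4 libraries and R bounds the Avicel level by the glucose level.

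No lowered gene was listed at 0 in an Avicel library, and 94 of the 98 held at least 1 FPKM in both. The mean level on Avicel was below 1 FPKM for 2 genes, from 1 to 5 FPKM for 15, from 5 to 10 FPKM for 17, from 10 to 50 FPKM for 41, from 50 to 100 FPKM for 13 and 100 FPKM or more for 10. Thus 64 of the 98 still held 10 FPKM or more on Avicel.

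The level left on Avicel had a median of 13.9% of the level on glucose, which is a 7.18-fold lower abundance. The middle 50% of the genes kept between 8.71% and 19.4%. By mean FPKM, 29 genes were at least 10-fold lower on Avicel, 18 at least 16-fold and 3 at least 100-fold. The smallest fold between any Avicel and any glucose library was 3.69, and for 95 of the 98 genes every such pair differed at least 4-fold. For 25 genes every pair differed at least 10-fold.

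**Figure D2:**
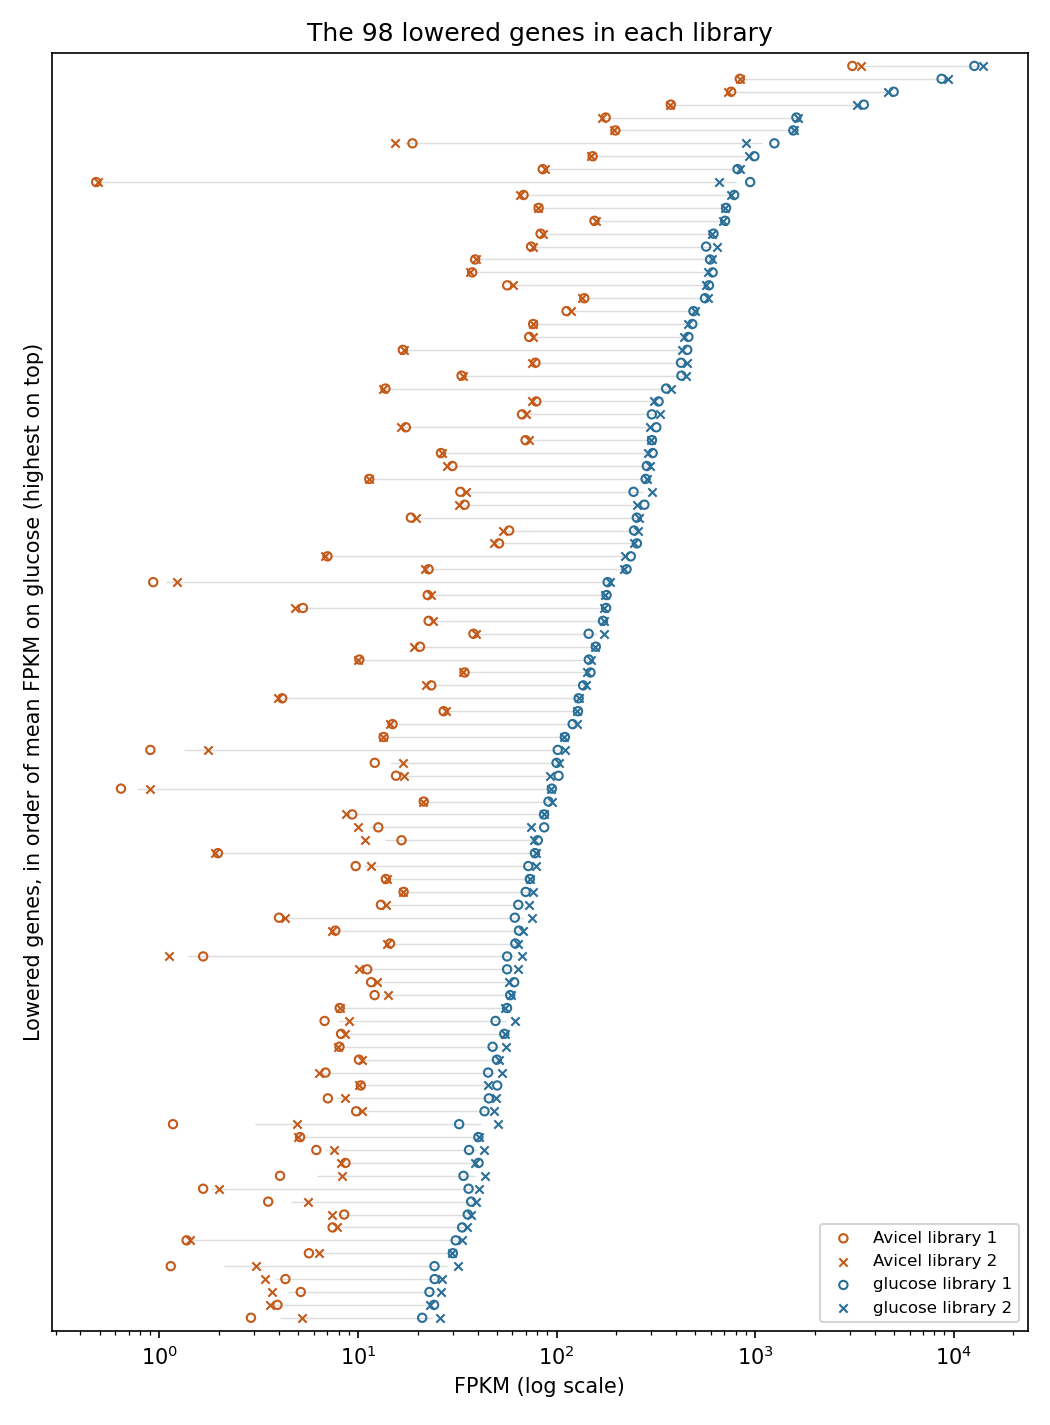
FPKM (log scale) of each of the 98 lowered genes in each library, 1 row per gene in order of the mean level on glucose; orange marks are the Avicel libraries, blue marks the glucose libraries, circles library 1 and crosses library 2, and grey lines join the means. The marks of 1 carbon source mostly coincide, and they spread apart on Avicel in the lowest rows and in several rows near 1 FPKM.

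All 98 genes passed the filter on low values (at least 1 FPKM in at least 2 libraries) and all 98 were called lower by limma, at an adjusted p below 0.05 over all tested genes. Of all 8261 tested genes 39.5% were called lower. For all 98 genes, by the rule, both Avicel libraries lay below both glucose libraries, as did those of 51.3% of the tested genes. The rule used the same contrast, so nothing is read from either count.

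The gene with the lowest R, c4128_g1, stood near the bottom of the Avicel libraries and in the upper ranks on glucose. It had 0.48 and 0.49 FPKM on Avicel, against 945 and 660 FPKM on glucose. By mean level it stood at position 8731 on Avicel and at 55 on glucose. The fold between the means was 1655, but it rests on Avicel values with an unknown and possibly very small number of reads. The second gene in the order of R, c1590_g1, had 0.93 and 1.22 FPKM on Avicel, against 181 and 185 FPKM on glucose. Its means differed 170-fold, and its glucose libraries lay close together.

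Of the third to the fifth gene in the order of R, the third was well above 0 on Avicel and the others were near it. The third had 18.8 and 15.3 FPKM on Avicel, against 1252 and 905 FPKM on glucose, a 63.2-fold lower mean. The fourth had 0.64 and 0.90 FPKM on Avicel, against 94.8 and 93.9 FPKM on glucose, a 122-fold lower mean. The fifth had 0.90 and 1.75 FPKM on Avicel, against 101.4 and 110.8 FPKM on glucose, an 80.1-fold lower mean. In the fifth gene the second Avicel library stood well above the first, and the number of reads behind both values is unknown. In each of these 5 genes the groups were far apart compared with the spread inside either group, a gap that the choice by lowest R favours.

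The abundant end held a small number of genes with a large part of the signal. The most abundant lowered gene was also the most abundant of all IDs on glucose. It had 3092 and 3433 FPKM on Avicel, against 12735 and 14098 FPKM on glucose, and still stood at position 9 of all IDs on Avicel. Its R of 0.243 placed it just inside the limit. The second had 838 and 839 FPKM on Avicel, against 8708 and 9420 FPKM on glucose, a 10.8-fold lower mean. It stood at position 62 on Avicel and at 2 on glucose.

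The next 3 genes in order of abundance were between 6.52-fold and 9.40-fold lower on Avicel. The third had 758 and 729 FPKM on Avicel, against 4994 and 4699 FPKM on glucose, a 6.52-fold lower mean. The fourth had 377 and 371 FPKM on Avicel, against 3532 and 3267 FPKM on glucose, a 9.10-fold lower mean. The fifth had 177 and 170 FPKM on Avicel, against 1616 and 1644 FPKM on glucose, a 9.40-fold lower mean. In these genes the libraries of 1 carbon source lay close together. They lay far from those of the other, a gap that the rule selects for.

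The sixth to the tenth gene in order of abundance on glucose were less uniform. The sixth had 198 and 195 FPKM on Avicel, against 1559 and 1573 FPKM on glucose. The seventh was the gene with the third lowest R, and the tenth was c4128_g1, both given above. Between them, the eighth had 152 and 149 FPKM on Avicel, against 993 and 931 FPKM on glucose. The ninth had 85.3 and 87.2 FPKM on Avicel, against 816 and 843 FPKM on glucose. Of these 10 genes, the tenth and the seventh had the lowest R, followed by the second with an R of 0.0926.

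On Avicel the order at the top was almost the same. The 4 highest lowered genes on Avicel were the 4 highest on glucose, in the same order, and the fifth on Avicel was the sixth on glucose. Among the 10 most abundant of all IDs, the lowered genes held 1 place on Avicel and 4 on glucose. Among the 100 most abundant they held 3 places on Avicel and 17 on glucose, and the 3 on Avicel were also among the 100 on glucose.

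Together the 98 genes made up 1.44% and 1.49% of the summed FPKM in the Avicel libraries, against 10.02% and 9.94% in the glucose libraries. The mean share was 1.47% ± 0.0366 (SD, n = 2) on Avicel and 9.98% ± 0.0532 (SD, n = 2) on glucose. The direction of this difference was fixed by the choice of the genes, and only its size is described. The most abundant gene alone held 0.59% ± 0.0422 (SD, n = 2) on Avicel and 2.44% ± 0.129 (SD, n = 2) on glucose. The other 97 genes held 0.88% ± 0.0056 (SD, n = 2) on Avicel and 7.54% ± 0.182 (SD, n = 2) on glucose. The 5 genes that were highest on glucose accounted for 66.5% ± 0.802 (SD, n = 2) of the summed FPKM of the 98 on Avicel and 59.1% ± 1.18 (SD, n = 2) on glucose. A few genes thus dominated the sum on both carbon sources, and the median gene describes the set better than the total does.

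**Figure D3:**
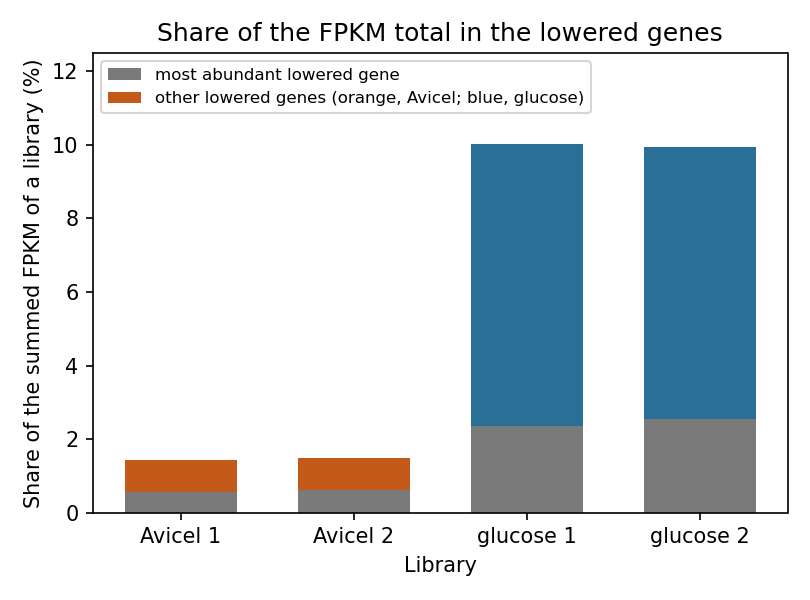
Share of the summed FPKM of each library (vertical, percent, axis from 0) held by the 98 lowered genes, with the most abundant gene in grey and the other 97 in orange for Avicel and in blue for glucose. The bars reach 1.44% and 1.49% in the Avicel libraries and 10.02% and 9.94% in the glucose libraries.

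The lowered genes were a larger share of the IDs that were abundant on glucose than of those near the limit. From 20 to 50 FPKM on glucose they were 20 of 1817 IDs (1.10%), from 50 to 100 FPKM 23 of 1484 (1.55%), and from 100 to 200 FPKM 15 of 744 (2.02%). From 200 to 500 FPKM they were 21 of 343 IDs (6.12%), from 500 to 1000 FPKM 12 of 94 (12.8%), and at 1000 FPKM or more 7 of 36 (19.4%). Grouping by the glucose level favours such genes, since a gene raised on glucose for any reason moves up in this order. A level that weights all 4 libraries alike, the mean of log2(FPKM + 1), gave a different picture. In 5 classes of equal size of the tested genes, from the lowest to the highest level, it placed 0, 12, 34, 18 and 34 lowered genes. The floor of 20 FPKM on glucose keeps the lowest class empty by itself, so that 0 was fixed by the rule and the lower classes are limited by it. Among the 100 highest genes by that level, 4 were lowered genes, against 98 of all 8261 tested genes. The mirrored rule, for genes higher on Avicel, also had 4 genes among those 100. It had 35 in the highest class, so these places are not particular to the lowered genes.

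**Figure D4:**
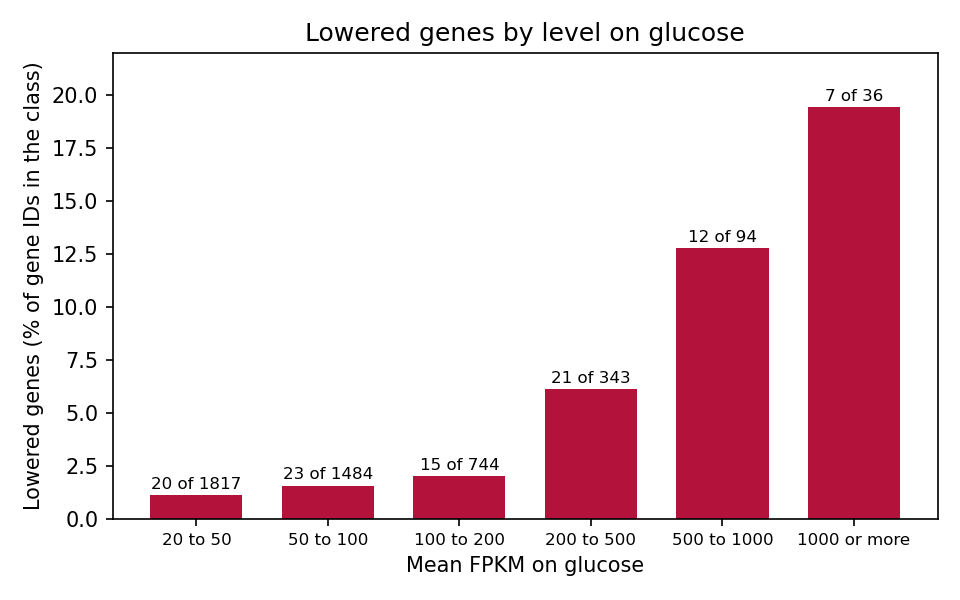
Share of gene IDs that are lowered genes (vertical, percent, axis from 0) by mean FPKM on glucose, for the 4518 IDs with at least 20 FPKM in both glucose libraries; the counts stand above the bars. The share goes from 1.10% in the lowest class to 19.4% in the highest, in an order that itself uses the glucose values.

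Within the set, R was somewhat lower in genes with a high level on glucose. The 49 genes above the median level on glucose had a median R of 0.126, and the 49 below it had 0.175. Across the 98 genes the Spearman correlation between the glucose level and R was -0.30. The pseudocount of 1 in R raises the R of weakly expressed genes, and the glucose level is part of R, so this too is a description.

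The lowered genes formed the tail of a continuous distribution. Of the 4518 IDs with at least 20 FPKM in both glucose libraries, R stood for a level at least 16-fold lower on Avicel in 14, for one 8-fold to 16-fold lower in 21 and for one 4-fold to 8-fold lower in 63. The next class, with R from 0.25 to 0.5, held 306 IDs, and 2502 lay between 0.5 and 1. The 5 genes just inside the limit had R values from 0.2418 to 0.2478, and the 5 just outside had 0.2502 to 0.2593. Just inside, 1 gene had 38.2 and 39.4 FPKM on Avicel, against 145 and 174 FPKM on glucose. Just outside, the nearest had 5.60 and 7.98 FPKM on Avicel, against 29.1 and 31.2 FPKM on glucose.

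The limit on the glucose level cut through similar genes. The 5 genes just inside it had lower glucose values from 21.1 to 24.3 FPKM, and the 5 just outside, with R and order otherwise as required, from 14.6 to 19.9 FPKM. One of the genes outside had 10.8 and 7.24 FPKM on Avicel, against 76.2 and 18.6 FPKM on glucose, and was kept out by its second glucose library alone. The third condition, that the groups do not overlap, removed no gene. The mirrored rule for genes higher on Avicel kept 96 IDs, and the difference from 98 was not tested.

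The rule was also applied to 1 library of each carbon source, and R was then read in the libraries it had not used. The first Avicel with the first glucose library kept 104 genes, of which 93 (89.4%) had an R of at most 0.25 in the other pair. The first Avicel with the second glucose library kept 107, of which 90 (84.1%) did so. The second Avicel with the first glucose library kept 99, of which 88 (88.9%) did so, and the second with the second kept 100, of which 95 (95.0%) did so. In the unused libraries the median R was between 0.139 and 0.166, and in every case each kept gene had an R below 1 there. The highest R in unused libraries was 0.979. Over all 4 libraries, 55.4% of the 4518 IDs with at least 20 FPKM in both glucose libraries had an R from 0.5 to 1. A further 6.77% had an R from 0.25 to 0.5, and 2.17%, the lowered genes themselves, one of at most 0.25. These shares were not computed for the unused pairs alone. An R below 1 was therefore common and sets no kept gene apart. The chosen pairs kept 90 to 97 of the 98 genes. The libraries of a carbon source may be technical replicates, so these shares describe how alike they are and are no independent support.

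The rule used the libraries of a carbon source only through their mean and their limits, so the difference between them is a further property of the genes. The median absolute difference, on the log2(FPKM + 1) scale, was 0.0653 on Avicel and 0.0716 on glucose. Over the 4420 other IDs with at least 20 FPKM in both glucose libraries it was 0.0389 on Avicel and 0.0613 on glucose. Among the lowered genes, the difference on Avicel was larger at lower levels there. The median was 0.131 in the 34 lowered genes below 10 FPKM on Avicel and 0.0528 in the other 64. The latter value was still above the 0.0389 of the other IDs, which were not matched by level on Avicel. The reason for the larger value on Avicel was not tested. The Avicel libraries differed by more than 0.5 in 7 genes, all with a mean of at most 13.7 FPKM on Avicel.

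Counted by gene, the direction of these differences was even on Avicel and uneven on glucose. The 7 genes that differed by more than 0.5 on Avicel were not even. All were higher in the second Avicel library except a single gene, at 0.56. Of the 98 genes, 49 were higher in the first Avicel library and 49 in the second, whereas on glucose 38 were higher in the first library and 60 (61.2%) in the second. Of the other 4420 IDs, 52.2% were higher in the second glucose library. The genes share the same 2 libraries and are not replicates, so no test was made of this difference.

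The largest difference between the glucose libraries, -0.64 on the log2(FPKM + 1) scale, was in a weakly expressed gene. It had 1.17 and 4.91 FPKM on Avicel, against 32.3 and 51.0 FPKM on glucose, and was also the gene with the largest difference between the Avicel libraries. The next largest on glucose were in c4128_g1 and in the gene with the third lowest R, both abundant there. Among the 40 lowered genes with at least 200 FPKM on glucose, the larger value was a median of 1.052 times the smaller. It was 1.43 times the smaller for c4128_g1 and 1.38 times for the gene with the third lowest R, both higher in the first glucose library, and 1.24 times for the next gene, which was higher in the second. Among the 433 other IDs of that level, 3 had a ratio above 1.3. The bounds of 200 FPKM and 1.3 were chosen after the values were seen. The lower glucose value of c4128_g1 and of the gene with the third lowest R was still far above its higher Avicel value, a gap that the rule selects for.

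**Figure D5:**
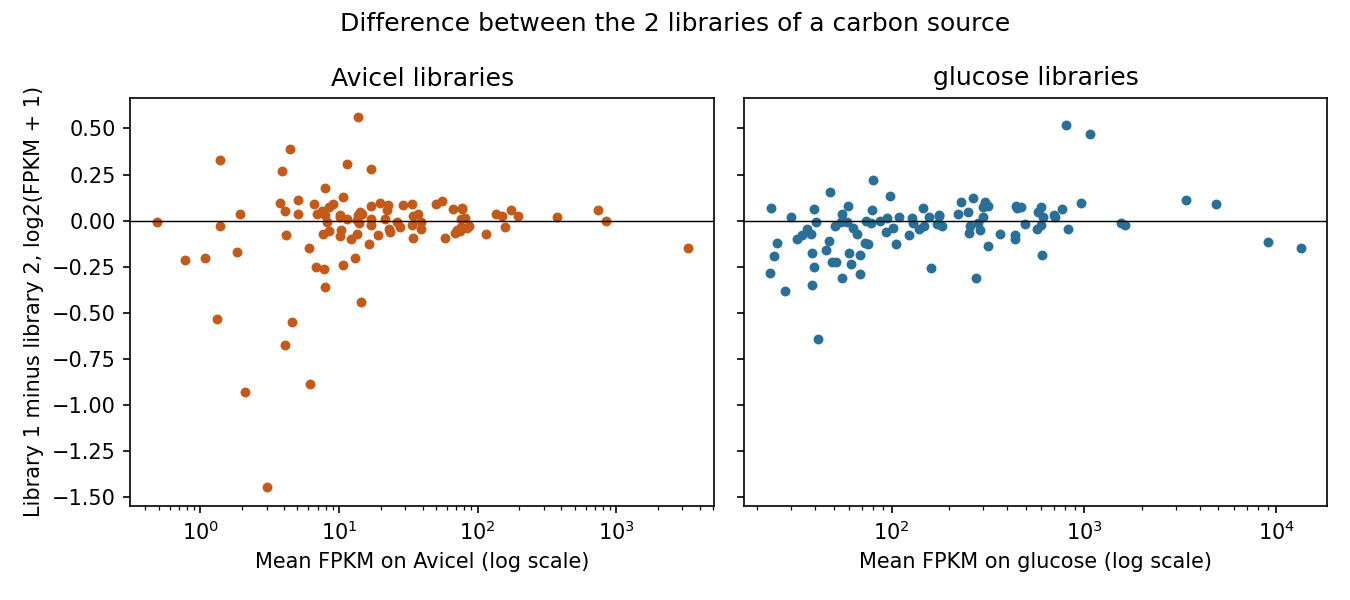
First library minus second library on the log2(FPKM + 1) scale (vertical) against the mean FPKM on that carbon source (horizontal, log scale) for the 98 lowered genes, with Avicel on the left and glucose on the right. Points scatter most at low levels on Avicel, down to -1.45, and 2 points near 1000 FPKM stand above the others on glucose.

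The IDs consist of a component and a gene number, and IDs that share a component can hold related transcripts or pieces of 1 transcript. Of the lowered genes 4 of 98 (4.08%) shared their component with other IDs, against 582 of all 9704 IDs (6.0%). Their components held 8 other IDs, none of which the rule kept. The R of these 8 ranged from 0.276 to 2.13, and 1 of them had an R of at most 0.5. The component with that ID held 3 other IDs beside the lowered gene. The lowered gene had 16.6 and 10.9 FPKM on Avicel, against 80.5 and 77.2 FPKM on glucose. The ID with the R of 0.276 had 28.2 and 30.0 FPKM on Avicel, against 95.2 and 120 FPKM on glucose. The other two had an R of 1.06 and 1.09 and so were not lowered. Reads of near-identical transcripts can be divided between such IDs, and the values of these 4 genes are uncertain to that extent. For the other 94 genes the component held no second ID.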

How the data were processed

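RNA abundance was measured in 4 libraries, sequenced on an Illumina GAIIx per the series' design text. The authors deposited 1 table per library of FPKM values, rounded to 2 decimals, per the file headers. The submitters' processing notes name RSEM 1.2.15 and Bowtie2; the reference and read filters are not stated there. FPKM values carry no counts, so no count test was run and the absolute depth is unknown. Relative depth was estimated from genes above 0.4 FPKM in 2 libraries and at 0 in another, whose ratios pile up at the step of equal read numbers; 32.6% to 42.3% of ratios lay within 0.1 (log2) of it.

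The tables were joined by ID and grouped by sample title. Genes that reached 1 FPKM in 2 or more libraries were fitted as log2(FPKM + 1) with limma 3.58.1 in R 4.3.3 (empirical Bayes with abundance trend, two-sided, Benjamini-Hochberg over 8261 genes), with no scaling between libraries; fold changes on that scale understate low genes. The fit and the depth estimate were also run on simulated data. Those for the depth held no difference in abundance between libraries, so they do not settle how accurate the depths above are. The 98 genes and the lists were chosen with earlier results of these data known. Named were the 2 genes with the lowest R; the 10 highest on glucose, 5 highest on Avicel, 5 lowest in R and 5 on each side of each limit were described by rank. Alternatives were pseudocounts of 0.1 and 10, 3 scalings, other filters and limits, a 1.5-fold test, a replicate block and each library left out.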

Additional observations from a re-analysis of the deposited data

How the results depend on the processing

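The rule kept 58 genes with a pseudocount of 10 in R, 35 with a limit on R that stands for 8-fold and 404 with one that stands for 2-fold. It kept 79 genes after median-of-ratios scaling, all among the 98, 87 after quantile normalization, of which 86 were, and 96 to 101 genes without 1 library. The other pseudocount, limits on the glucose level and TPM gave 76 to 114. All 98 genes were called lower by limma in every fit on all 4 libraries. Of all tested genes, 39.5% were called lower in the main fit, and that share is not given for the other fits. The rule used the same contrast, so nothing is read from these counts. Without the first or the second glucose library, the filter left 96 of the 98 genes. The median log2 change of the genes, -2.73, was -2.84 and -2.12 with pseudocounts of 0.1 and 10, -2.56 after median-of-ratios scaling, -2.67 after quantile normalization and -2.79 as TPM. It was -2.86 to -2.73 without 1 library, where 1 carbon source is left with a single library that is assumed to vary like the other group. The change of c4128_g1 was -9.06, and -10.40 and -6.25 with pseudocounts of 0.1 and 10. Without the 100 most abundant genes of each library, the remaining lowered genes held 0.807% of the rest on Avicel and 3.17% on glucose. This removed 3 of the 98 in each Avicel library, against 17 and 15 in the glucose libraries, so the shares cover different genes. The median difference between the Avicel libraries was 0.0423 with a pseudocount of 10.

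With a replicate block, all 98 genes were again called lower, with a median of -2.73. The share of all tested genes called lower, 39.5% in the main fit, is not given for the fit with a block. The same contrast chose these genes, so nothing is read from the count of 98. No label ties libraries of the same replicate number to a common culture. The first-minus-second differences on Avicel and on glucose had a correlation of 0.55 across the 98 genes, 0.39 across the 64 with at least 10 FPKM on Avicel, 0.14 across the 4420 other IDs with at least 20 FPKM in both glucose libraries and -0.0011 across all 8261 tested genes. The value of 0.55 includes a weakly expressed gene with the largest difference on both carbon sources, -1.45 on Avicel and -0.64 on glucose. A correlation without that gene was not computed.

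With an unknown number of reads behind each value, the folds of the 4 genes with less than 1 FPKM in an Avicel library are the least certain.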
